A study of Drosophila melanogaster with 8 samples.

Results

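The Rab GTPases of the Drosophila embryo were compared between cells sorted for activity of the E10 enhancer and all cells of the same embryos. Every row of the deposited gene table whose symbol starts with Rab followed by a digit, an X or a hyphen was taken as a member, which gave 31 of 15182 fly genes. The table still lists 2 of them under older symbols, Rab-RP3 and Rab-RP4, which the RefSeq gene table calls Rab19 and Rab18. Rab GTPases that the deposited table lists under unrelated names were not matched by this rule.

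The GFP-positive group was 4 libraries of cells from E10::EGFP embryos that passed an EGFP gate set on wild type cells, 1 library from each of 4 sorts. The all-cells group was 4 libraries, 1 from each of those sorts, of 50000 cells collected from the parent scatter gate of the same dissociated embryos, per the sample labels, so EGFP-positive cells would be among them. In the design text of the series the background cells are named GFP- instead. The labels are followed here, and on the other reading each fold change would compare EGFP-positive with EGFP-negative cells. Both groups carried the E10::EGFP transgene, were at early stage 14 after about 11 h of ageing at 25 °C, and came from large population cages. E10 is an enhancer of ovo (shavenbaby), the gene that directs the making of trichomes, the hairs of the larval cuticle, and EGFP marks the cells where that enhancer has been active rather than one dissected tissue. RNA of each library was amplified from 5 ng before sequencing.

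Rab proteins are small GTPases that act as switches on membranes. A guanine nucleotide exchange factor (GEF) loads a Rab with GTP, the loaded Rab recruits effectors such as tethers and motors that move, dock or fuse vesicles, and a GTPase-activating protein (GAP) turns it off. Rab escort protein (Rep) presents new Rabs for the addition of their lipid anchors, and GDP dissociation inhibitor (Gdi) takes inactive Rabs off the membrane. Epithelial cells use the system to sort apical from basal cargo and to secrete cuticle, and neurons use their own set for synaptic vesicles.

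Values are FPKM, fragments scaled to transcript length and library size, as deposited, so that levels can be set side by side between genes. A gene was tested when it reached 1 FPKM in at least 4 of the 8 libraries, with limma on log2(FPKM + 1) and adjustment over all 10943 genes tested. A gene is called higher or lower in GFP-positive cells where the adjusted p was under 0.05, and every fold change below is GFP-positive minus all cells on that log2 scale. Because of the added 1, such fold changes are too small for genes at low FPKM. In bulk libraries, fewer cells of a type and less RNA per cell cannot be told apart.

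The libraries matched their labels at ovo, which stood at 262 ± 43.6 FPKM in GFP-positive cells and 41.6 ± 11.9 FPKM in all cells (SD, n = 4 each; log2 fold change 2.65). All 13 epidermis and trichome markers were called higher, their summed level being 4049 to 5614 FPKM in GFP-positive libraries and 408 to 933 FPKM in all-cell libraries. Of these sums Gasp alone made up 1026 to 1840 FPKM and 106 to 292 FPKM. Tracheal markers were also called higher, 6 of 6, at 2323 to 3318 FPKM and 484 to 898 FPKM. Of 16 neuron markers, 15 were called lower, with sums of 236 to 497 FPKM and 823 to 1613 FPKM, and none was at 0 in all 4 GFP-positive libraries. GFP-positive library 3 had the highest neuron sum of its group. One fragment on a 1 kb transcript was worth an estimated 0.105 to 0.165 FPKM in GFP-positive libraries and 0.085 to 0.105 FPKM in all-cell libraries, so a floor of 3 fragments lay at 0.315 to 0.495 FPKM and 0.255 to 0.315 FPKM. These floors cover counting error only.

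Nearly all of the family was detected. Of the 31 members, 26 reached 1 FPKM in all 8 libraries and 29 were tested, RabX2 and RabX5 being too low. In GFP-positive cells 10 of those tested were called higher, 7 lower and 12 neither. Over all genes tested the share called higher was 11.6% and the share called lower was 38.7%. The median log2 fold change was 0.07 over the tested members and -0.47 over all genes tested. Those higher were Rab11, Rab5, Rab7, Rab30, Rab23 and 5 Rab9-like paralogues, and those lower were Rab3, RabX4, Rab26, Rab10, Rab35, Rab14 and Rab40. Recycling and exocytosis Rabs stood on both sides, and whether direction goes with role was not tested. Roles were assigned by hand, at most 1 to a member, although some act in several, so counts by role rest on that choice.

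**Figure D1:**
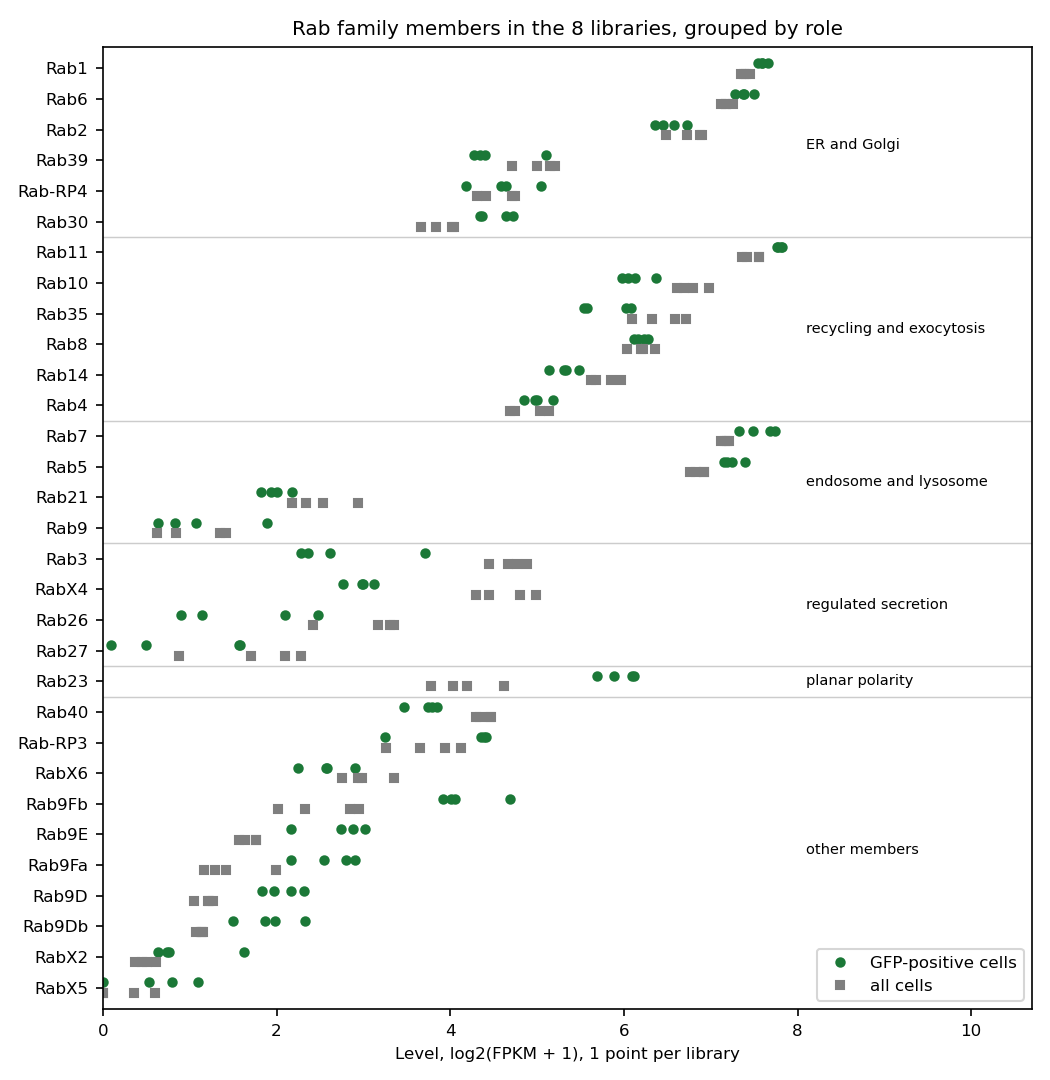
Level as log2(FPKM + 1) of each Rab member in the 4 GFP-positive libraries (circles) and 4 all-cell libraries (squares), 1 point a library, members grouped by role. Rab11, Rab1, Rab7, Rab6 and Rab5 lie above 100 FPKM in all libraries of both groups, whereas Rab3 and RabX4 lie under 13 FPKM in GFP-positive libraries and above 18 FPKM in all-cell libraries.

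The direction of these calls is relative to the other RNA in each library, and it moved with the scaling. When the libraries were scaled to a common composition (TMM-like scaling), the median of all genes tested was -0.08 and 15 members were called higher and 2 lower, against 19.6% and 21.8% of all genes tested. With quantile normalization the median was -0.09, and 9 members were higher and 4 lower (18.7% and 23.3% of all genes tested). When they were scaled by the sum of the ERCC spike-ins, RNA standards added before amplification, the median was -1.26 and 0 members were called higher and 11 lower (2.85% and 53.0% of all genes tested). The spike-in share of GFP-positive over all-cell libraries was 0.50, 0.75, 0.90 and 2.07 log2 units in sorts 1 to 4, so sort 4 stood apart. The 10 members called higher as deposited were therefore higher relative to the typical gene under the 4 scalings, by 0.30 to 2.33 log2 units, and not shown to be higher per unit of spike-in.

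**Figure D2:**
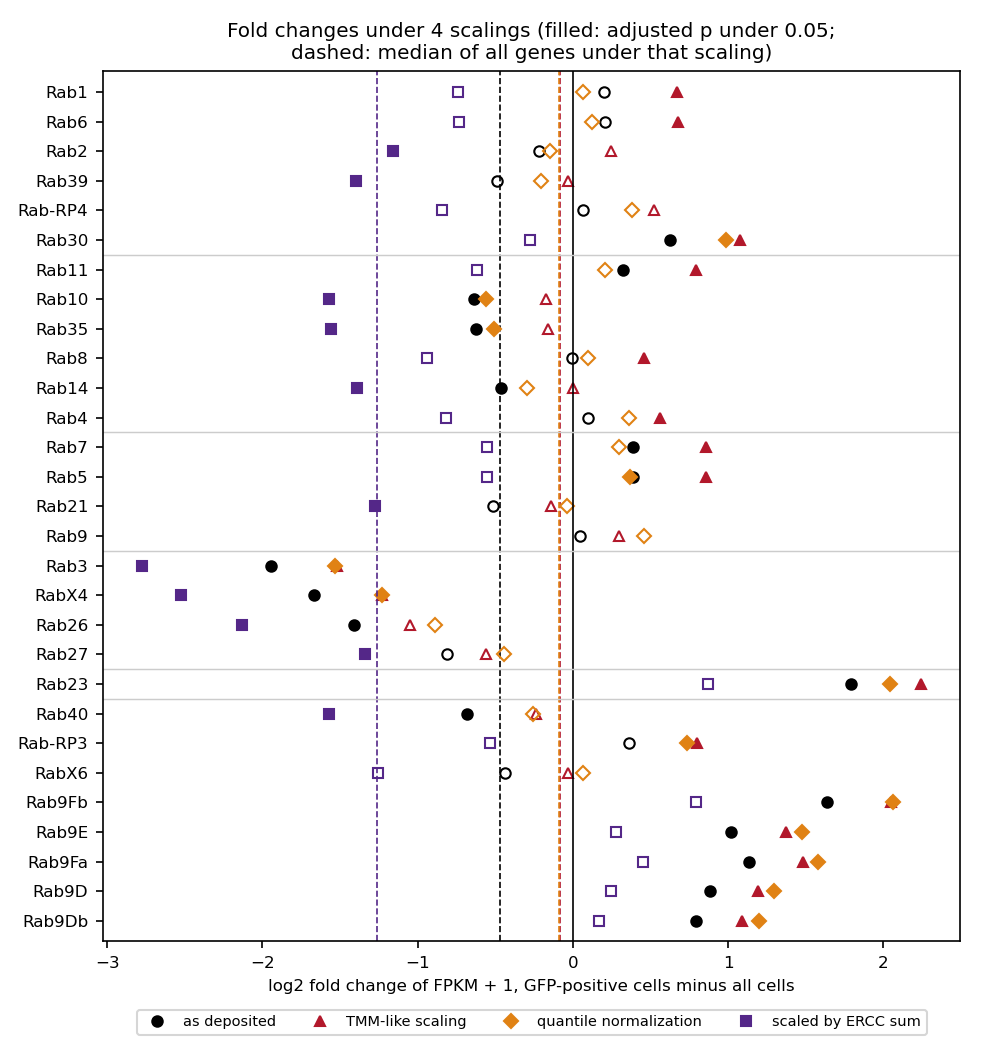
Log2 fold change (GFP-positive minus all cells, FPKM + 1) of the tested Rab members as deposited and under 3 other scalings, with the median of all genes tested under each scaling as a dashed line. Under spike-in scaling Rab30, Rab11, Rab7 and Rab5 lie below 0, at -0.27, -0.62, -0.55 and -0.55, while Rab23 and the 5 Rab9-like members stay above 0 without a call.

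The planar polarity member, Rab23, had the largest rise of the family. In flies Rab23 limits the number of hairs a wing cell makes and helps to orient them. Rab23 (CG2108; chromosome 3R, 1505776 to 1511148 on dm3) stood at 68.5, 50.8, 58.3 and 67.1 FPKM in GFP-positive libraries 1 to 4, against 23.6, 12.7, 17.4 and 15.4 FPKM in the all-cell libraries of those sorts. The lowest GFP-positive library was above the highest all-cell library, and every sort showed the rise. The means were 61.2 ± 8.29 FPKM and 17.3 ± 4.63 FPKM (SD, n = 4 each), 3.54-fold higher in GFP-positive cells, or a log2 fold change of 1.79 by limma (standard error 0.19, adjusted p = 4.83e-05). Within sorts the log2 difference ran between 1.5 and 2.05. Rab23 ranked 9th of the 31 members by mean FPKM in GFP-positive cells and 17th in all cells. It was called higher in each of 8 fits that left out 1 library and under TMM-like scaling and quantile normalization, but not under spike-in scaling (log2 fold change 0.87, adjusted p = 0.139).

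**Figure D3:**
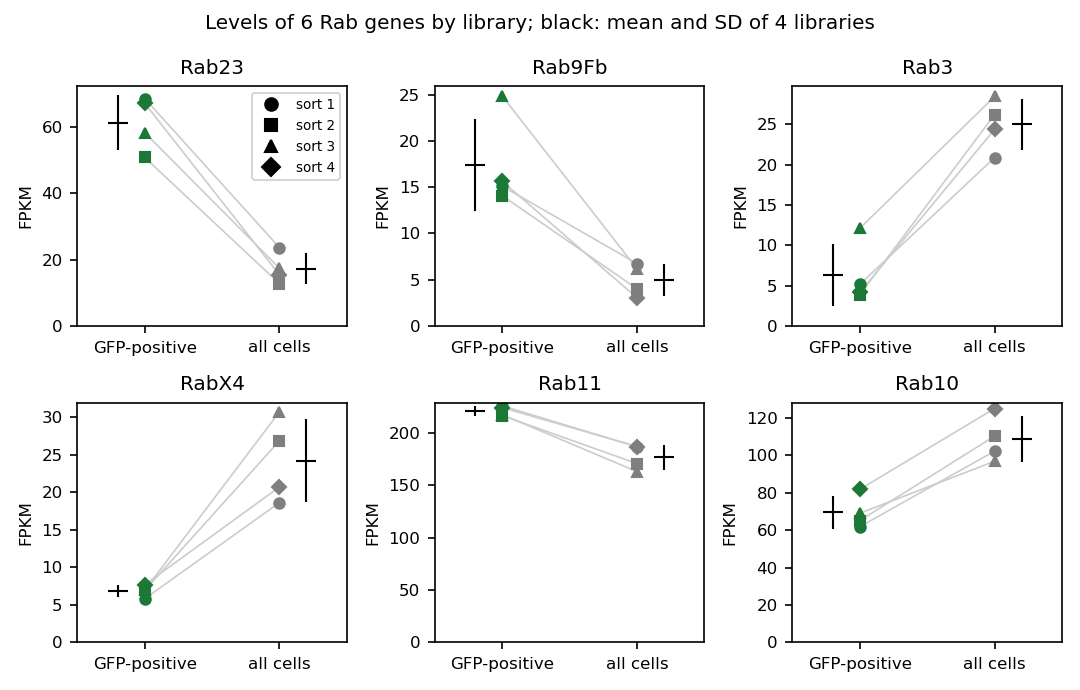
FPKM by library of selected Rab members, GFP-positive left and all cells right in each panel, with marker shapes for the sorts and bars for the mean and SD (n = 4). Rab23 and Rab9Fb lie higher in all 4 GFP-positive libraries, and Rab3 and RabX4 lie lower, with GFP-positive library 3 the highest of its group for Rab3 at 12.1 FPKM.

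Among 6 Rabs of the endoplasmic reticulum (ER) and Golgi, 1 was called higher and none lower, beside 11.6% and 38.7% of all genes tested. The median log2 fold change of the 6 was 0.13. Rab1 drives transport from the ER to the Golgi and Rab6 acts in traffic at the Golgi. Rab1 (CG3320) was the second most abundant member, at 191, 186, 192 and 202 FPKM in GFP-positive libraries 1 to 4 and 161, 166, 174 and 168 FPKM in the all-cell libraries. Rab6 (CG6601) had 180.1, 166, 155 and 165 FPKM in GFP-positive cells and 144, 152, 137 and 143 FPKM in all cells. Neither was called although their groups did not overlap: log2 fold changes were 0.20 for Rab1 (95% interval -0.03 to 0.43) and 0.21 for Rab6 (-0.03 to 0.45), with limma adjusted p = 0.13 and 0.139. Over all genes tested, 10.2% had all 4 GFP-positive libraries above all 4 all-cell libraries and 34.8% had them below.

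Rab30 was the Golgi member called higher. Rab30 (CG9100; chromosome 2L, 7030493 to 7032603) stood at 19.4, 25.4, 24.0 and 19.6 FPKM in GFP-positive libraries, against 15.4, 11.7, 13.3 and 15.3 FPKM in all-cell libraries. Groups did not overlap, at a log2 fold change of 0.63 by limma (standard error 0.17, adjusted p = 0.0108). The call was lost when both libraries of sort 2 were left out.

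The remaining 3 members of the group were not called. Rab2, which acts in Golgi traffic and in the fusion of autophagosomes with lysosomes, had 80.8, 86.2, 105 and 94.3 FPKM in GFP-positive libraries and 88.6, 118, 105 and 116 FPKM in all-cell libraries (log2 fold change -0.22, 95% interval -0.53 to 0.09). Rab39 acts with secretory lysosomes in the fusion cells that join fly tracheal tubes. Rab39 values were 19.3, 20.1, 33.4 and 18.4 FPKM in GFP-positive libraries and 36.0, 30.9, 25.2 and 34.4 FPKM in all-cell libraries. It was lower in sorts 1, 2 and 4 and higher in sort 3, with a log2 fold change of -0.49 and a limma adjusted p of 0.0728. Leaving out GFP-positive library 3 or all-cell library 3 brought it under the threshold, at log2 fold changes of -0.68 and -0.59. Rab-RP4 (Rab18), known in mammals for its place on lipid droplets and the ER, had 22.9, 24.0, 31.9 and 17.2 FPKM in GFP-positive libraries and 25.9, 18.8, 20.3 and 25.2 FPKM in all-cell libraries. The groups overlapped.

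Recycling and exocytosis Rabs moved in opposite directions: of 6, 1 was called higher and 3 lower, beside 11.6% and 38.7% of all genes tested. Rab11, the Rab of the recycling endosome, was the most abundant member in both groups. Rab11 (CG5771; chromosome 3R, 16937129 to 16941877) had 226, 216, 217 and 224 FPKM in GFP-positive libraries 1 to 4, against 187, 171, 163 and 187 FPKM in the all-cell libraries. The GFP-positive libraries were within 10 FPKM of each other and all above the all-cell ones. Its log2 fold change was 0.32 by limma (standard error 0.11, adjusted p = 0.0282). This was a narrow call: it was lost on leaving out GFP-positive library 1 or 4 or all-cell library 2 or 3, with adjusted p up to 0.073, on leaving out both libraries of any 1 sort, and with quantile normalization.

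Rab10 and Rab35 were lower by similar amounts. Rab10 directs basement membrane proteins to the basal side of fly follicle cells, and Rab35 acts in endocytic recycling and actin organisation. Rab10 (CG17060; chromosome X, 20122451 to 20125717) had 61.8, 65.1, 69.0 and 81.8 FPKM in GFP-positive libraries and 102, 110.3, 96.8 and 125 FPKM in all-cell libraries, with a log2 fold change of -0.64 by limma (standard error 0.14, adjusted p = 0.00271). Rab35 (CG9575) had 46.6, 45.6, 66.6 and 64.0 FPKM in GFP-positive libraries and 67.4, 95.02, 104 and 79.0 FPKM in all-cell libraries (log2 fold change -0.63, SE 0.18, limma adjusted p = 0.0143). For both members every GFP-positive library was below every all-cell library, by less than 1 FPKM at the closest pair for Rab35. Both stayed called lower with quantile normalization, at -0.56 and -0.51 (limma adjusted p = 0.00789 and 0.0466), or -0.47 and -0.42 relative to the median of all genes. Under spike-in scaling both were also called lower, at -1.57 and -1.56, or -0.31 and -0.29 relative to that median. Neither was called under TMM-like scaling, at -0.17 and -0.16, and relative to the median of all genes they lay at -0.17 and -0.16 as deposited. Rab35 also lost its call without both libraries of sort 2. The Rab10 locus overlaps CG17068, and reads of overlapping genes may have been split between them.

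Rab14 takes part in endosome and phagosome maturation in fly blood cells. It had 38.6, 39.4, 43.9 and 34.1 FPKM in GFP-positive libraries and 50.3, 56.6, 48.4 and 61.3 FPKM in all-cell libraries, with no overlap. Its log2 fold change was -0.46 by limma (standard error 0.14, adjusted p = 0.0167). The call was lost without all-cell library 4, without both libraries of sort 2 or 4 and with quantile normalization, and under TMM-like scaling the value was 0.0019.

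Rab8 and Rab4 were not called. Rab8, an exocytic Rab, had 74.0, 70.5, 76.3 and 68.1 FPKM in GFP-positive libraries and 80.9, 64.5, 73.4 and 72.1 FPKM in all-cell libraries, a log2 fold change of -0.01 (95% interval -0.27 to 0.26). Rab4, which acts in rapid recycling from early endosomes, had 31.0, 30.4, 35.4 and 27.7 FPKM in GFP-positive libraries and 34.2, 25.9, 24.7 and 31.7 FPKM in all-cell libraries (log2 fold change 0.10, 95% interval -0.24 to 0.45). Both were called higher under TMM-like scaling, at 0.46 and 0.56. The Rab4 locus overlaps CG42239 and Dcr-2.

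**Figure D4:**
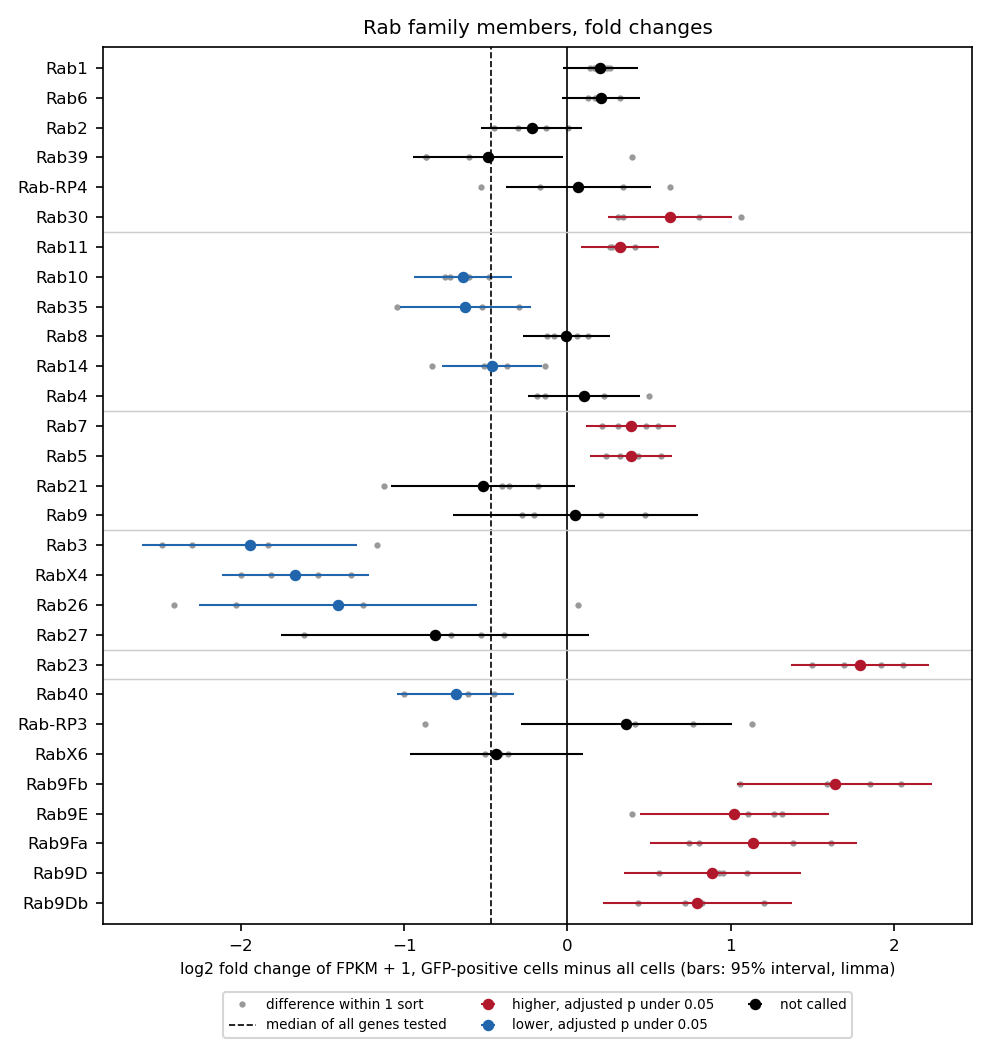
Log2 fold change (GFP-positive minus all cells, FPKM + 1) of the 29 tested Rab members with 95% intervals, small points for the difference within each sort, and the median of all genes tested at -0.47. Rab23 at 1.79 and Rab9Fb at 1.63 lie farthest to the right and Rab3 at -1.95 and RabX4 at -1.66 farthest to the left, while the members above 100 FPKM lie within 0.64 of 0.

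Of the 4 endosome and lysosome members, 2 were called higher and none lower, beside 11.6% and 38.7% of all genes tested. Rab14, called lower, and Rab39, not called, also act at endosomes or lysosomes as described above but were counted in other groups. Rab5 governs fusion of early endosomes and Rab7 the step to late endosomes and lysosomes. Rab5 (CG3664; chromosome 2L, 2359546 to 2365362) had 142, 167, 145 and 151 FPKM in GFP-positive libraries 1 to 4, against 120.2, 112, 107 and 120.4 FPKM in all-cell libraries. Rab7 (CG5915; chromosome 3R, 19818734 to 19821174) had 178, 213, 205 and 159 FPKM in GFP-positive libraries and 143, 145, 147 and 138 FPKM in all-cell libraries. The groups were separate for both genes, and all 4 sorts showed the rise. Both had a log2 fold change of 0.39 (SE 0.11 for Rab5 and 0.12 for Rab7), with limma adjusted p = 0.0149 for Rab5 and 0.0227 for Rab7. Rab5 stayed called in all 8 fits without 1 library but not without both libraries of sort 2. Rab7 lost its call without GFP-positive library 2 or 3 or all-cell library 4, without both libraries of sort 1, 2 or 3, and with quantile normalization. The Rab5 locus overlaps Axud1.

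The other endosomal members were low. Rab21, an endosomal Rab, had 2.52 to 3.51 FPKM in GFP-positive libraries and 3.53 to 6.67 FPKM in all-cell libraries. Its groups were just apart but it was not called (log2 fold change -0.52, 95% interval -1.08 to 0.05, limma adjusted p = 0.115). Rab9, which acts in traffic between late endosomes and the Golgi, had 0.557 to 2.71 FPKM in GFP-positive libraries and 0.543 to 1.67 FPKM in all-cell libraries, and the groups overlapped.

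Of the 4 members placed by hand under regulated secretion, 3 were called lower and none higher, beside 38.7% and 11.6% of all genes tested. The median log2 fold change of the 4 was -1.54. Rab3 is the Rab of synaptic vesicles. It had 5.15, 3.87, 12.1 and 4.16 FPKM in GFP-positive libraries 1 to 4 and 20.9, 26.2, 28.4 and 24.4 FPKM in all-cell libraries. No library overlapped, although GFP-positive library 3 had far more than the others of its group. The means were 6.32 ± 3.89 FPKM and 25.0 ± 3.20 FPKM (SD, n = 4 each), 3.95-fold lower in GFP-positive cells (log2 fold change -1.95, SE 0.30, limma adjusted p = 3.71e-04). The Rab3 locus overlaps CG12309.

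RabX4 is a fly Rab expressed in the nervous system, and no secretory role of it was shown here. RabX4 (CG31118; chromosome 3R, 20652387 to 20653691) had 5.82, 6.93, 6.96 and 7.68 FPKM in GFP-positive libraries and 18.6, 26.9, 30.7 and 20.7 FPKM in all-cell libraries. The GFP-positive values were close together and far below the all-cell ones, 3.54-fold lower by the means (log2 fold change -1.66, SE 0.20, limma adjusted p = 9.26e-05). Unlike Rab3, RabX4 showed no raised value in GFP-positive library 3. Rab3 and RabX4 were the 2 members called lower under each of the 4 scalings.

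Rab26, in mammals a Rab of secretory granules and of synaptic vesicle clusters, was called lower with overlap. It had 4.58, 1.20, 3.29 and 0.867 FPKM in GFP-positive libraries and 4.34, 7.98, 9.22 and 8.91 FPKM in all-cell libraries. It was the 1 called member of 17 that did not move the same way in all 4 sorts, since GFP-positive library 1 was slightly above all-cell library 1. Its log2 fold change was -1.41 by limma (standard error 0.39, adjusted p = 0.0109), and the call was lost under TMM-like scaling (adjusted p = 0.0529), with quantile normalization, and without both libraries of sort 2 or of sort 4. Rab27, which docks secretory granules in mammals, had 1.96, 0.0686, 0.408 and 1.98 FPKM in GFP-positive libraries and 3.27, 2.27, 0.839 and 3.87 FPKM in all-cell libraries. It was lower in all 4 sorts, with a log2 fold change of -0.81 that was not called without a block (limma adjusted p = 0.137) and was called with the sort as a replicate block (adjusted p = 0.0321), a fit that called 13.2% of all genes tested higher and 44.6% lower. Its GFP-positive library 2 was under the floor of 3 fragments on 1 kb.

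Markers of neurons and of several other cell types, though not of all, were lower beside these 3 calls. Those called lower were 15 of 16 for neurons, 5 of 6 for glia, 5 of 5 for neuroblasts, 8 of 8 for somatic muscle and 3 of 3 tested for fat body. The share of all genes tested called lower was 38.7%. Of 5 hemocyte markers tested 2 were lower and none higher, and of 5 salivary gland markers tested 1 was lower and 2 higher. Somatic muscle markers summed to 347 to 599 FPKM in GFP-positive libraries and 1946 to 3000.1 FPKM in all-cell libraries, and neuroblast markers to 22.1 to 68.7 FPKM and 175 to 375 FPKM. Glia markers summed to 213 to 246 FPKM in GFP-positive libraries and 351 to 446 FPKM in all-cell libraries, and fat body markers to 25.6 to 71.9 FPKM and 371 to 838 FPKM. Most of the glia sum was nrv2, at 185 to 215 FPKM and 219 to 304 FPKM, and the median log2 fold change of the 6 glia markers was -2.31. GFP-positive library 3 was the highest of its group for the neuron, neuroblast, somatic muscle and fat body sums. The 15 neuron markers called lower included elav, a pan-neuronal RNA-binding protein, at 50.8 to 130 FPKM in GFP-positive libraries and 273 to 491 FPKM in all-cell libraries. Syt1, the synaptic vesicle calcium sensor, had 2.54, 2.21, 6.44 and 2.80 FPKM in GFP-positive libraries and 12.5, 25.9, 23.9 and 22.1 FPKM in all-cell libraries. GFP-positive library 3 was the highest of its group for elav, Syt1 and Rab3. Among the other neuron markers, n-syb, futsch and unc-13 were highest in GFP-positive library 4 and Syx1A in GFP-positive library 2. The part of any of these cell types in the 3 calls was not tested.

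The remaining 10 members have no role group of their own. Of these, 8 were tested, of which 5 were called higher and 1 lower, beside 11.6% and 38.7% of all genes tested. All 5 rises were Rab9-like paralogues that lie near each other on chromosome X, Rab9D, Rab9Db, Rab9E, Rab9Fa and Rab9Fb. Little is known of their roles. Rab9Fb (CG32670; chromosome X, 10845642 to 10846519) was the most abundant of them, at 15.1, 14.1, 24.8 and 15.6 FPKM in GFP-positive libraries and 6.74, 4.01, 6.16 and 3.04 FPKM in all-cell libraries. The groups were far apart, 3.49-fold higher in GFP-positive cells by the means (log2 fold change 1.63, SE 0.27, limma adjusted p = 6.15e-04).

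The other 4 paralogues were at under 8 FPKM in every library. Rab9Fa (chromosome X, 10844193 to 10845063) had 5.96, 3.49, 6.46 and 4.83 FPKM in GFP-positive libraries and 2.98, 1.68, 1.44 and 1.24 FPKM in all-cell libraries (log2 fold change 1.14, limma adjusted p = 0.00711). Rab9E (chromosome X, 10555198 to 10555791) had 5.70, 3.48, 7.13 and 6.36 FPKM in GFP-positive libraries and 2.11, 2.41, 2.39 and 1.96 FPKM in all-cell libraries (log2 fold change 1.02, limma adjusted p = 0.00786). All GFP-positive values of both genes exceeded all the all-cell values.

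Rab9D (chromosome X, 10483122 to 10484018) had 3.51, 2.56, 3.96 and 2.93 FPKM in GFP-positive libraries and 1.33, 1.41, 1.32 and 1.06 FPKM in all-cell libraries (log2 fold change 0.89, limma adjusted p = 0.0114). Rab9Db (chromosome X, 10516388 to 10517258) had 2.65, 1.83, 4.03 and 2.95 FPKM in GFP-positive libraries and 1.21, 1.10, 1.18 and 1.23 FPKM in all-cell libraries (log2 fold change 0.80, limma adjusted p = 0.0267). The groups were again separate. Rab9Db lost its call without GFP-positive library 3 or all-cell library 1, 2 or 4 or both libraries of any 1 sort, and Rab9D without both libraries of sort 1. All 4 of the low paralogues fell out of the test with a filter of 5 FPKM.

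What surrounds these paralogues limits how far their values can be read as their own. Rab9Fa and Rab9Fb lie within Myo10A, an unconventional myosin locus at 46.1 ± 5.17 FPKM in GFP-positive cells and 11.3 ± 2.00 FPKM in all cells (SD, n = 4 each; log2 fold change 1.94, limma adjusted p = 2.09e-05). The gene CG16922 inside that locus and C901 beside it had log2 fold changes of 2.04 and 2.59. Rab9E lies within X11Lbeta, which went the other way, at 3.61 ± 1.57 FPKM in GFP-positive cells and 23.3 ± 8.98 FPKM in all cells (log2 fold change -2.38). Rab9D and Rab9Db overlap no other locus in the table. Reads of near-identical paralogues may also have been split between them by the authors' counting, and neither this nor the part of Myo10A was tested.

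Rab40, which in mammals joins a ubiquitin ligase, was the member called lower here. Rab40 (CG1900; chromosome X, 12353823 to 12357141) had 12.4, 10.1, 13.3 and 12.8 FPKM in GFP-positive libraries, against 19.3, 21.2, 18.6 and 21.0 FPKM in all-cell libraries. These groups were clearly apart, with a log2 fold change of -0.68 by limma (standard error 0.16, adjusted p = 0.00517). It was not called under TMM-like scaling (-0.24) or quantile normalization (-0.26), and it lay 0.22 below the median of all genes as deposited.

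Rab-RP3 (Rab19) varied most by sort among the members above 10 FPKM. It had 19.5, 19.97, 20.3 and 8.53 FPKM in GFP-positive libraries and 14.4, 8.58, 11.5 and 16.4 FPKM in all-cell libraries, higher in sorts 1 to 3 and lower in sort 4. The log2 fold change was 0.36 (95% interval -0.29 to 1.01, limma adjusted p = 0.33), and it was called without GFP-positive library 4 (0.64), under TMM-like scaling (0.80) and with quantile normalization (0.74). The Rab-RP3 locus overlaps CG7197. RabX6 had 3.75 to 6.46 FPKM in GFP-positive libraries and 5.76 to 9.24 FPKM in all-cell libraries and was not called (log2 fold change -0.43, limma adjusted p = 0.154), and its locus overlaps Vti1.

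RabX2 and RabX5 were at the limit of detection. RabX2, inside the CG32683 locus, had 0.701, 0.551, 2.07 and 0.674 FPKM in GFP-positive libraries and 0.291, 0.533, 0.417 and 0.371 FPKM in all-cell libraries. RabX5 had 0.737, 1.13 and 0.440 FPKM and was listed at 0 in GFP-positive libraries 1 to 4 in that order, and in all-cell libraries it had 0.518 and 0.286 FPKM in sorts 1 and 4 and was listed at 0 in sorts 2 and 3. Most of these values were near the floor of 3 fragments on 1 kb.

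Summed over the 31 members, Rab expression was 1474, 1484, 1570.4 and 1472 FPKM in GFP-positive libraries and 1389, 1406, 1379 and 1454 FPKM in all-cell libraries. That was 0.291 to 0.342% of all fly FPKM in GFP-positive libraries and 0.259 to 0.284% in all-cell libraries. The 7 members highest in all cells made up 69.3 to 74.1% of the sum in GFP-positive libraries and 67.4 to 69.3% in all-cell libraries. By role, the endosome and lysosome members summed to 344 ± 31.1 FPKM in GFP-positive cells and 264 ± 5.14 FPKM in all cells, and the regulated secretion members to 16.8 ± 4.58 FPKM and 59.4 ± 9.41 FPKM (SD, n = 4 each). Recycling and exocytosis members summed to 488 ± 19.0 FPKM and 528 ± 19.6 FPKM. The order of the abundant members changed little: Rab11 ranked 1st and Rab1 2nd in both groups, whereas Rab3 ranked 20th in GFP-positive cells and 13th in all cells.

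At the level of transcripts the table listed 55 Rab isoforms, of which 49 were tested, 7 called higher and 8 lower. Over all isoforms tested 9.28% were called higher and 27.2% lower. In 18 members a single isoform repeats the gene's value. Rab11-RB carried 89.6 to 94.4% of Rab11 in GFP-positive libraries and 92.1 to 93.9% in all-cell libraries, so the predominant transcript was the same one. Neither Rab11-RB (0.31, limma adjusted p = 0.0574) nor Rab11-RA was called, although the gene was. Likewise Rab9Db-RA, the single isoform of Rab9Db, was not called in the isoform test (limma adjusted p = 0.0542). Rab7-RC and Rab30-RD, the main isoforms of their genes, were called higher as the genes were (log2 fold changes 0.42 and 0.63), and Rab35-RB, Rab14-RA, Rab26-RB and Rab26-RD lower (-0.61, -0.49, -1.48 and -1.37).

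Rab4-RC was called lower although Rab4 itself was not. It had 0.596, 0.809 and 1.31 FPKM in GFP-positive libraries 2 to 4 and was listed at 0 in library 1, against 4.24, 2.27, 1.91 and 3.73 FPKM in all-cell libraries (log2 fold change -1.28, limma adjusted p = 0.0199). That was 0 to 4.74% of Rab4 in GFP-positive libraries and 7.71 to 12.4% in all-cell libraries. The call was lost without all-cell library 1 or 4 and with a pseudocount of 0.1 (adjusted p = 0.0561).

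For Rab5 the isoform shares were unstable between libraries of 1 group: Rab5-RF made up 17.1 to 66.2% of the gene in GFP-positive libraries and 15.3 to 47.4% in all-cell libraries. In both groups the lowest share was in sort 3, where Rab5-RD made up 57.2% in the GFP-positive library and 40.3% in the all-cell library. None of the 6 Rab5 isoforms was called, although the gene was.

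The authors' deposited table also holds a Cuffdiff comparison of the 2 libraries of each sort, without replicates. By its q-values under 0.05, Rab3 was lower in sorts 1, 2 and 4, with q = 0.016, 0.00743 and 0.0031. In the authors' deposited table Rab26 was lower in sorts 2 and 4 (q = 0.00222 and 6.93e-04) and RabX4 in sort 3 (q = 0.0265). Rises were called for Rab9Fb in sorts 3 and 4 (q = 0.0449 and 0.0286) and for Rab23 in sort 4 (q = 0.00861) in the authors' deposited table. Counts of 0 to 2 of 31 members per sort and direction stand beside the authors' calls over all fly genes, which were 4.09%, 4.68%, 4.6% and 2.94% higher and 10.6%, 9.81%, 6.63% and 9.08% lower in sorts 1 to 4.

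The proteins that switch and place Rabs were examined as lists. Of 4 genes of Rab prenylation and recycling, 1 was called lower and none higher, Rep at 4.18 ± 0.863 FPKM in GFP-positive cells and 8.11 ± 0.463 FPKM in all cells (log2 fold change -0.83, limma adjusted p = 0.00933). Rep was not called under TMM-like scaling (-0.43). Gdi, far more abundant, had 120.3 ± 13.5 FPKM and 147 ± 18.7 FPKM and was not called as deposited (-0.28, adjusted p = 0.112). It was called lower with the replicate block (adjusted p = 0.0351) and under spike-in scaling (-1.22, adjusted p = 0.0345), each of which made 2 of the 4 lower. Of 12 GEFs tested, 1 was higher and 3 lower, with a median log2 fold change of -0.13, beside 11.6% and 38.7% of all genes tested. The rise was spri, a Rab5 GEF (0.47), and the falls were rab3-GEF (-1.55), CG11926 or Mon1, which with Ccz1 activates Rab7 (-1.07), and pcs, a Rab11 GEF (-0.60).

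The exchange factor rab3-GEF was lower beside Rab3, at 0.880 ± 0.260 FPKM in GFP-positive cells and 4.56 ± 1.17 FPKM in all cells. By contrast, Mon1 was lower and Rab7 higher, and pcs lower and Rab11 higher. Ccz1 (CG14980), the partner of Mon1, was not called, at 10.3 ± 5.81 FPKM in GFP-positive cells and 7.71 ± 3.45 FPKM in all cells. Its log2 fold change was 0.33 (limma adjusted p = 0.508). Under TMM-like scaling pcs was not called (-0.13). Mon1 had 3.49 ± 1.06 FPKM in GFP-positive cells and 8.38 ± 1.92 FPKM in all cells. Of 17 GAPs tested, none was called higher and 6 were called lower, with a median of -0.26, and the share lower was near the 38.7% of all genes tested. The largest falls were those of plx (-1.70), CG42795 (-1.64) and CG5337 (-1.59), all TBC domain proteins. Under TMM-like scaling 7 GAPs were higher and 4 lower, beside 19.6% and 21.8% of all genes tested.

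Of 39 effectors, tethers and motors tested, 3 were called higher and 8 lower, with a median log2 fold change of -0.05, both shares being under the 11.6% and 38.7% of all genes tested. The rises were 2 Rab11 effectors and 1 Rab6 adaptor. Rip11 had 89.0, 93.4, 120.4 and 98.2 FPKM in GFP-positive libraries and 57.0, 46.2, 47.0 and 55.0 FPKM in all-cell libraries (log2 fold change 0.95, limma adjusted p = 2.89e-04). The other Rab11 effector, nuf, had 115.1 ± 28.5 FPKM in GFP-positive cells and 74.6 ± 10.4 FPKM in all cells (0.60), and BicD, which links Rab6 cargo to dynein, had 60.2 ± 4.77 FPKM and 37.4 ± 5.47 FPKM (0.68). The groups were separate for all 3 genes, and none of the 3 was called under spike-in scaling, where nuf and BicD lay at -0.34 and -0.25.

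The largest falls among effectors were CG11448 or Rilpl, a homologue of mammalian RILP-like proteins (-1.27), Rim, the Rab3 effector of the presynaptic active zone (-1.13), and dor, a subunit of the HOPS complex that tethers late endosomes (-0.95). Rph, a further Rab3 effector chosen after its value was seen, was lower at -0.70 (limma adjusted p = 0.034). Neither Rph (-0.31) nor Rim (-0.78) was called under TMM-like scaling. Rim, which is also 1 of the 16 neuron markers above, had 1.79 ± 0.655 FPKM in GFP-positive cells and 5.02 ± 1.05 FPKM in all cells. Under TMM-like scaling 9 effectors were higher and 2 lower, beside 19.6% and 21.8% of all genes tested. The loci of spri, rab3-GEF, pcs, plx, CG5337, nuf, BicD, Rim and dor overlap other loci.

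**Figure D5:**
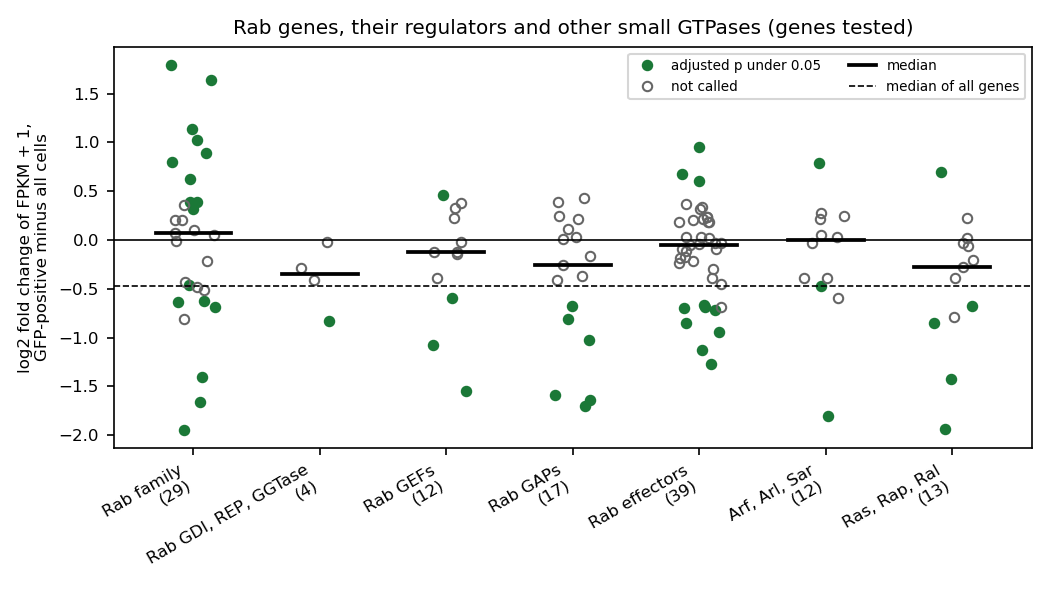
Log2 fold change (GFP-positive minus all cells, FPKM + 1) of the tested genes of the Rab family, of its regulator and effector lists and of the other small GTPase lists, 1 point a gene, with called genes filled and list medians marked. The Rab family has 10 genes called higher and 7 lower around a median of 0.07, and the GAPs have none called higher as deposited but 7 under TMM-like scaling.

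Other branches of the Ras superfamily were counted in the same way. Of 12 Arf, Arl and Sar GTPases tested, 1 was called higher and 2 lower. Of 13 Ras, Rap and Ral GTPases tested, 1 was higher and 4 lower. Over all genes tested the shares were 11.6% higher and 38.7% lower. The differences between these counts and those of the Rab family were not tested. The rise in the Arf branch was sar1, the GTPase of the COPII coat that leaves the ER, at 536 ± 55.0 FPKM in GFP-positive cells and 309 ± 27.6 FPKM in all cells (0.79, limma adjusted p = 4.64e-04), above every Rab member. Its neighbour in the pathway, Rab1, was not called. The rise among the Ras branch was CG13375 (0.69), and the 3 largest of its 4 falls were Rgk1 (-1.94), CG8500 (-1.42) and Rap2l (-0.85). The 2 falls in the Arf branch were Arf84F (-1.81) and Arf72A (-0.47). Rap2l and Arf72A were not called under TMM-like scaling, at -0.39 and -0.01.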

How the data were processed

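Gene and isoform levels of 8 libraries were analysed. The authors deposited FPKM values per the file headers, 1 column a library, with Cuffdiff q-values for each sort. Build dm3, TopHat 1.4.0 and version 1.3.0 of both Cufflinks and Cuffdiff are listed, per the submitters' processing notes. The settings, the gene models and any use of strand information were not given in the sources used here. RPKM appears in the names of the tables, and the design written for this work allowed either unit. Coordinates are dm3, with starts made 1-based. RefSeq Release 6 was used for current symbols only.

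Here log2(FPKM + 1) was tested with limma 3.58.1 in R 4.3.3 (mean-variance trend, no block, two-sided, Benjamini-Hochberg adjustment over all genes tested), on genes at 1 FPKM or more in at least 4 libraries. Isoforms were tested likewise, and the fit was tested on simulated data. No read counts were used. Depth was estimated from the smallest steps of FPKM times length in loci of 300 to 1500 bases, giving about 6060606 to 9523810 fragments in GFP-positive libraries and 9523810 to 11764706 in all-cell libraries. Columns of per-sample values left unused numbered 0.

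Numbered sorts in the labels pair the libraries. Between the 2 libraries of sorts 1 to 4, deviations from their group's mean correlated by 0.439, 0.105, 0.411 and 0.166. The highest correlation of either library with the other group's library of another sort was 0.274, 0.15, 0.15 and 0.274, above the same-sort value in sorts 2 and 4. The pairing rests on the labels, and blocking on the sort was an alternative. Other alternatives were pseudocounts, filters, scalings, summed isoforms and leaving out 1 library, and leaving out both libraries of a sort was added after seeing the data. Nothing in the labels ties sorts to separate cages, so p-values measure the spread between sorts.

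The members and gene lists were chosen with earlier results of these data known. Values in every library are given for each called member and each member averaging 20 FPKM or more in a group. From the other lists up to 3 called genes per direction with the largest change are named. From the lists 2 names were dropped because they named no gene of that role. A further gene list is not reported here.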

Additional observations from a re-analysis of the deposited data

Results flagged for a closer look

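In 5 of 62 groups of 4 libraries (each of the 31 members in each group), 1 library lay farther from the rest than Dixon's criterion allows at 95%, where chance gives about 1 in 20. Of these, 4 were high values in GFP-positive library 3. Rab39 had 33.4 FPKM there, against 18.4 to 20.1 FPKM in the other GFP-positive libraries. Rab3 had 12.1 FPKM there, against 3.87 to 5.15 FPKM. Rab9Fb had 24.8 FPKM there, against 14.1 to 15.6 FPKM, and RabX2 had 2.07 FPKM there, against 0.551 to 0.701 FPKM. That library also had the highest summed markers of its group for neurons (497 FPKM), somatic muscle (599 FPKM), fat body (71.9 FPKM) and neuroblasts (68.7 FPKM). The fifth was a low value, Rab-RP3 at 8.53 FPKM in GFP-positive library 4, against 19.5 to 20.3 FPKM in the others.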

How the results depend on the processing

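Pseudocounts of 0.1 or 5, no filter and summed isoform values changed no call of a member, and no member was called in opposite directions by any 2 settings. The replicate block added Rab27 as lower and changed no other call of a member. A filter of 5 FPKM left 6 members higher.

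Rab members called higher and lower, 10 and 7 as deposited, were 15 and 2 under TMM-like scaling, 9 and 4 under quantile normalization and 0 and 11 under spike-in scaling. TMM-like scaling ended the calls of Rab10, Rab14, Rab26, Rab35 and Rab40 and added Rab-RP3, Rab1, Rab4, Rab6 and Rab8 as higher. Quantile normalization ended those of Rab11, Rab7, Rab14, Rab26 and Rab40 and added Rab-RP3. Spike-in scaling ended all 10 rises and added Rab2, Rab21, Rab27 and Rab39 as lower. All genes called higher and lower, 1265 and 4233 as deposited, were 2143 and 2377 under TMM-like scaling and 2052 and 2554 under quantile normalization, and 309 were higher under spike-in scaling. The share of calls that were higher was 23.0% as deposited, 47.4% under TMM-like scaling, 44.6% under quantile normalization and 5.11% under spike-in scaling.

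Regulators and effectors, 4 higher and 18 lower as deposited, were 20 and 8 under TMM-like scaling and 19 and 10 under quantile normalization, with 0 higher under spike-in scaling. Other small GTPases of the Arf and Ras lists, 2 higher and 6 lower, were 8 and 3 under TMM-like scaling, with 5 higher under quantile normalization and 0 higher and 11 lower under spike-in scaling. Isoforms, 7 higher and 8 lower beside 9.28% and 27.2% of all isoforms tested, were 13 and 4 under TMM-like scaling. The shares of all isoforms under that scaling are not given here, so a shift of Rab isoforms cannot be told from one of all isoforms.

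Leaving out 1 library gave 8 to 10 members higher and 6 to 8 lower, beside 1047 to 1241 and 3300 to 4228 of all genes. Those fits called 1 to 2 other small GTPases higher (1 without GFP-positive library 3 or all-cell library 4). They called 2 to 7 isoforms higher and 3 to 10 lower, and their shares of all isoforms are not given here. Isoforms higher were 4 without GFP-positive library 3 or all-cell library 2 and fell to 2 without all-cell library 4, and isoforms lower were 5, 4, 4 and 3 without all-cell libraries 1 to 4. Leaving out both libraries of sorts 1 to 4 in turn left 6, 5, 7 and 9 members higher and 7, 4, 8 and 5 lower. Over all genes, those fits called 1098, 891, 1098 and 1189 higher and 3384, 2963, 4066 and 3409 lower. The genes tested in them were 10776, 11146, 11208 and 10824. With no sort left out, 1265 and 4233 of 10943 genes were called. Without sort 2, 2 regulators and effectors were higher, and 1 other small GTPase was higher without any 1 of the sorts.

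Fold changes that turned round under spike-in scaling were those of Rab1 (-0.74), Rab6 (-0.73), Rab-RP4 (-0.84), Rab30 (-0.27), Rab11 (-0.62), Rab4 (-0.82), Rab7 (-0.55), Rab5 (-0.55) and Rab-RP3 (-0.53). Under TMM-like scaling Rab2 (0.25), Rab8 (0.46) and Rab14 (0.0019) turned, and under quantile normalization Rab8 (0.098) and RabX6 (0.063). Of uncalled members near 0, leaving out libraries gave -0.076 to 0.21 for Rab-RP4, -0.062 to 0.045 for Rab8 and -0.10 to 0.21 for Rab9. Without both libraries of sort 2 or 3 Rab-RP4 was -0.024 and -0.12. Rab8 was 0.033 without sort 1 and 0.018 without sort 4, and without sort 3 Rab4 was -0.032 and Rab9 -0.0032. The causes were not tested. Depth limits the members under about 3 FPKM.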

Other observations

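Rab GTPases that the table lists under names without Rab were looked up after the members had been fixed. ltd (lightoid), the fly Rab32, which serves the making of eye pigment granules, had 11.5, 7.47, 7.23 and 8.72 FPKM in GFP-positive libraries and 33.0, 33.4, 18.7 and 42.5 FPKM in all-cell libraries. The groups did not overlap, and it was called lower (log2 fold change -1.72, limma adjusted p = 2.84e-04), as it was under TMM-like scaling (-1.28). chrw, which RefSeq lists as RabX1, had 11.2 ± 1.00 FPKM in GFP-positive cells and 13.4 ± 2.68 FPKM in all cells (SD, n = 4 each) and was not called (-0.22, limma adjusted p = 0.358).

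By chromosome, 5 of 12 tested members on X were higher and 3 lower, and of 17 on other chromosomes 5 were higher and 4 lower. The shares of all genes tested were 11.6% higher and 38.7% lower, and a difference between chromosomes was not tested. The 5 higher members on X were the Rab9-like paralogues. A subunit of the Rab3 GAP complex that was in no list, CG31935 or Rab3GAP1, was higher at 14.8 ± 2.91 FPKM in GFP-positive cells and 9.12 ± 1.67 FPKM in all cells (SD, n = 4 each; log2 fold change 0.64, limma adjusted p = 0.0245), and lay at -0.25 under spike-in scaling. Its partner in the complex, rab3-GAP, had 9.03 ± 0.998 FPKM in GFP-positive cells and 6.47 ± 0.869 FPKM in all cells and was not called (0.43, limma adjusted p = 0.102).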
